A study of Mus musculus with 20 samples.

Results

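Fatty acids are burned in liver cells in 2 compartments. Mitochondria take up acyl groups through the carnitine shuttle and shorten them in the beta-oxidation spiral, whose acetyl-CoA feeds ketone body synthesis, while peroxisomes shorten very long and branched chains and pass the products on. The nuclear receptor PPAR alpha is the best known activator of these genes in the liver and is driven by fatty acids, and acyl-CoA thioesterases, which release the acid from coenzyme A, are among its classical targets in rodents. The 41 genes described here are named enzymes, carriers and helpers of these routes. They were listed by symbol for their known roles, with no threshold on a measured value, and each was matched to its Ensembl gene ID. Earlier results of these data were known when the list was made, so it is not blind to them. All 41 were found among the 55573 gene IDs of the count tables, and all 41 were among the 13783 genes that passed the filter on low counts. By their known location, 21 act in mitochondria, 12 in peroxisomes, 4 in both or on both sides, 3 in the cytosol and 1 at the cell surface.

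Liver RNA was sequenced from 20 male mice, 5 in each of 4 groups: Titan and control mice of 11 weeks and of 19-21 weeks. Titan (DU6) is a non-inbred line bred for high body mass over 45 years, and the control (FZTDU) is an unselected line from the same founder population. No engineered allele or treatment is named for any group, and all mice had free access to a standard breeding diet. Each line is 1 breeding population, so differences between the lines hold for these populations and cannot be assigned to single alleles.

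Depth on genes ran from 6794935 to 23295028 reads in the 20 libraries, with a median of 12547300. It was lower in the older groups. Titan libraries had 6794935 to 11464698 reads at 19-21 weeks (median 9524930) and 10465526 to 23295028 at 11 weeks (median 13971374). Control libraries had 7806106 to 18127024 reads at 19-21 weeks (median 11218712) and 12209454 to 22166755 at 11 weeks (median 14283662). Values are given in CPM (counts per mega-read, with reads on the tested genes as the total), the count of a gene scaled to a common library size after TMM normalization. Hepatocyte markers were abundant in every group, with a summed level between 88560 and 127000 CPM, although 3 of 9 were called lower in Titan mice at 11 weeks and 1 of 9 at 19-21 weeks. The 8 Kupffer cell markers summed to 86.7 to 279 CPM with 0 of 8 called in either comparison of lines. The 8 markers of hepatocytes around the central vein summed to 2445 to 3996 CPM in 11-week-old Titan mice and 4024 to 5632 CPM in controls of that age, without overlap, and 4 of 8 were called lower. The 4 tested leukocyte markers gave 2 called higher (sum over the list of 16.3 to 29.5 against 15.1 to 19.3 CPM), and the pancreas acinar list, of which 1 gene was tested and called lower, summed to 5.78 to 11.4 against 21.8 to 40.2 CPM. Of the 8 periportal markers 2 were lower at 11 weeks and 4 at 19-21 weeks, when 1 of 8 pericentral markers was lower. Of 7 endothelial markers 2 were lower at each age, with a sum of 266 to 323 CPM against 323 to 366 CPM at 11 weeks. Of 8 stellate cell markers 1 was higher at 11 weeks, and 0 of 4 cholangiocyte, 2 adipocyte and 4 erythroid markers were called between the lines. The 5 skeletal muscle markers did not pass the filter on low counts. These shifts move with the comparison of lines, and their part in the results was not tested. In whole tissue, fewer cells of a kind and less RNA per cell cannot be told apart. The share of reads outside genes, 18.4% to 41.96%, overlapped between all groups.

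The members covered a wide range of levels. Per kilobase of exon, which allows genes of different length to be compared, the level in 11-week-old controls was highest for *Fabp1*, the liver fatty acid-binding protein, at 4126 ± 916 CPM per kb (SD, n = 5). It was followed by *Acaa2*, the thiolase of the mitochondrial spiral, at 517 ± 51.3, by *Slc27a2*, a very long-chain acyl-CoA synthetase, at 290.0 ± 38.3, by *Acaa1b*, a peroxisomal thiolase, at 274 ± 80.8, and by the acyl-CoA synthetase gene *Acsl1* at 198 ± 18.1 CPM per kb. *Slc27a2* and *Acaa1b* did not differ beyond their spread. At the low end lay the thioesterase genes *Acot1* with 2.92 ± 1.18, *Acot2* with 2.09 ± 0.792 and *Acot3* with 0.329 ± 0.320 CPM per kb. The members together took 1.16% to 1.53% of the reads on genes in 11-week-old controls, 1.29% to 1.68% in 11-week-old Titan mice, 1.21% to 1.495% in older controls and 1.18% to 1.54% in older Titan mice, with overlap between all groups. The most abundant members, *Fabp1*, *Acaa2*, *Slc27a2*, *Acaa1b* and *Acsl1*, were not called between the lines at either age.

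**Figure D1:**
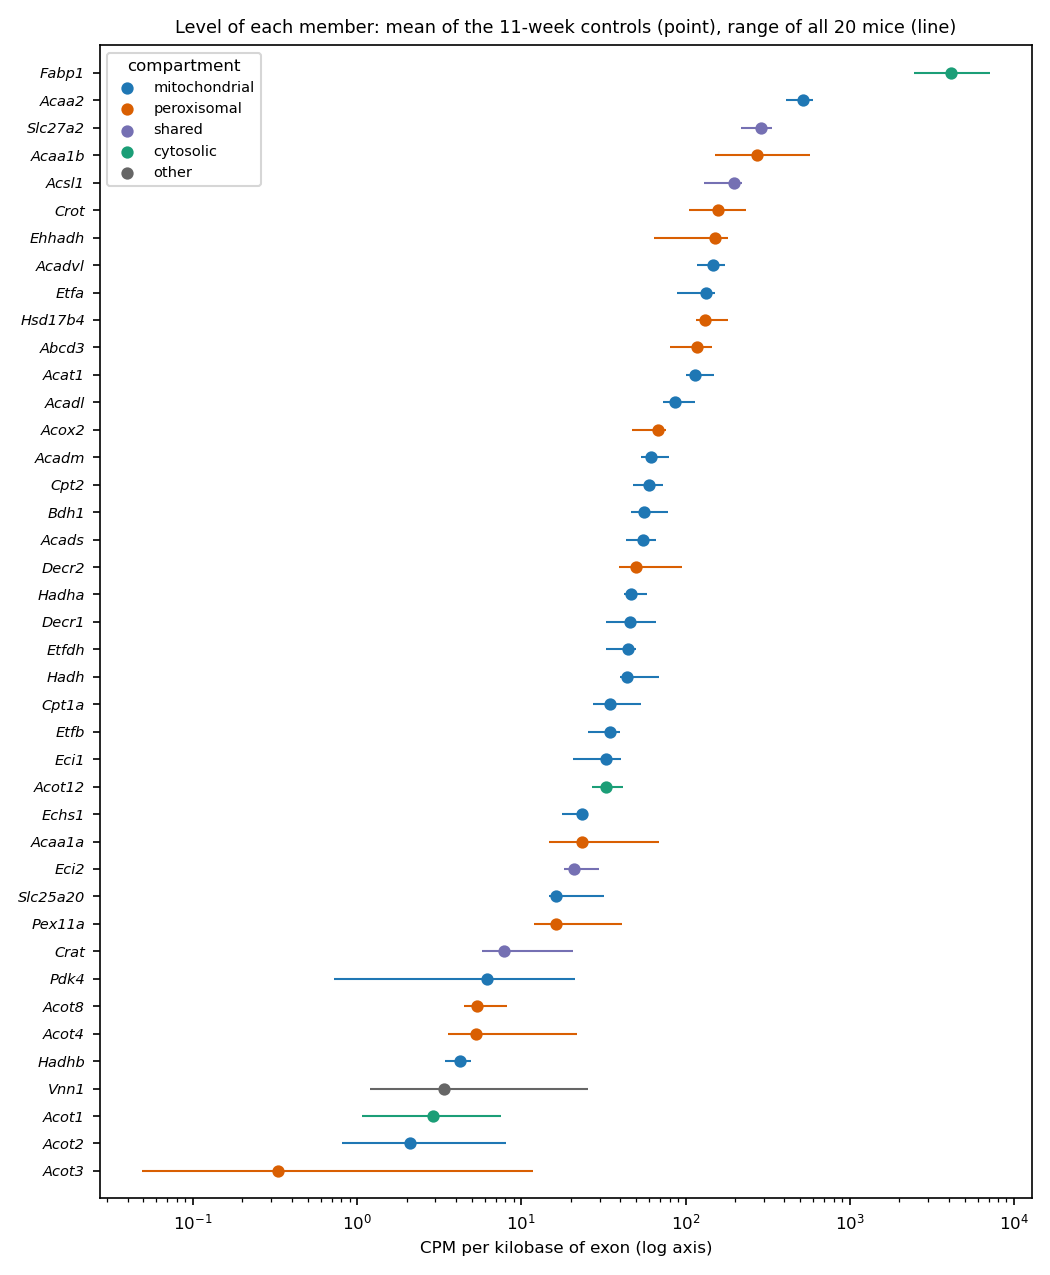
Level of each of the 41 members in CPM per kilobase of exon (log axis), with the mean of the 5 control mice of 11 weeks as a point, the range over all 20 mice as a line and the compartment as colour. *Fabp1* lies at the top and *Acot3* at the bottom, and the lines of *Acot3*, *Pdk4* and *Vnn1* are among the longest.

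At 11 weeks, the members that were higher in Titan livers were 2 genes of the carnitine shuttle, 3 thioesterases, the peroxisomal genes *Acaa1a*, *Decr2*, *Pex11a* and *Crot*, the kinase gene *Pdk4*, the pantetheinase gene *Vnn1* and 1 of the 9 genes of the mitochondrial spiral. Of the 41 members, 12 were higher and 1 was lower (edgeR quasi-likelihood test, Benjamini-Hochberg adjusted over 13783 genes, threshold 0.05). Over all tested genes 14.9% were called, 7.23% higher and 7.69% lower. In 10 members every Titan mouse lay above every control mouse and in 1 every Titan mouse lay below, which was the case for 5.84% and 6.08% of all tested genes. The median log2 difference was 0.23 over the members and -0.02 over all tested genes, and 30 of 41 members had a positive sign. By compartment, 4 of 21 mitochondrial members were higher and 0 lower, with a median of 0.11. Of the 12 peroxisomal members, 6 were higher and 1 lower, with a median of 0.55.

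**Figure D2:**
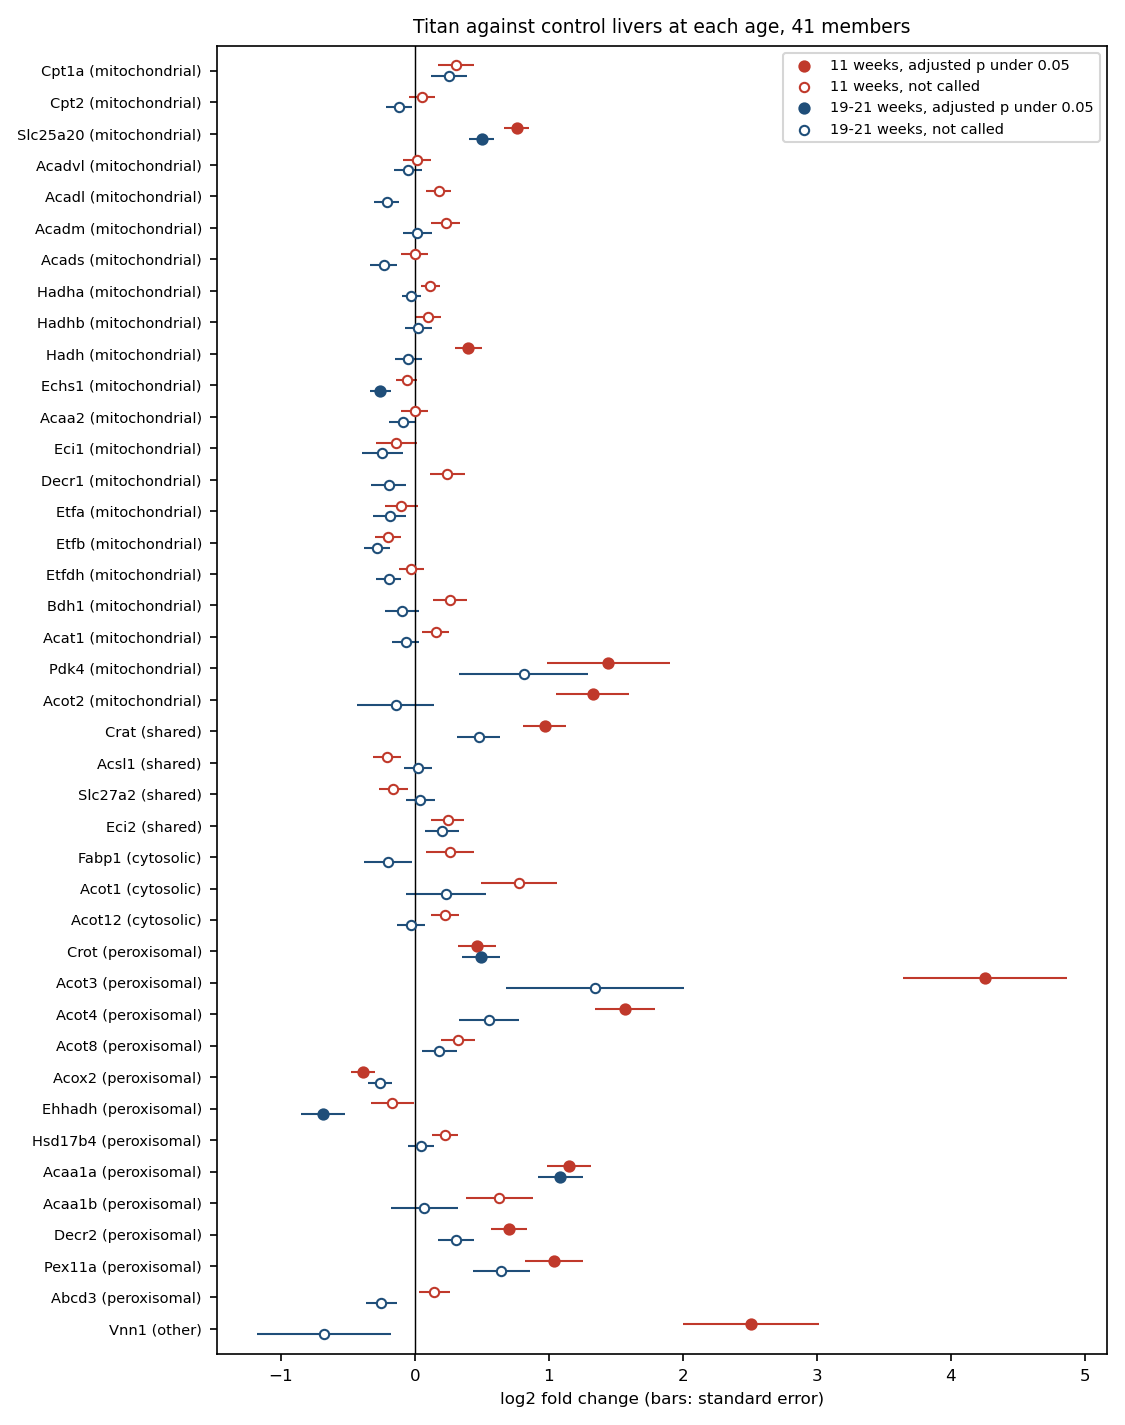
Log2 fold change of Titan against control livers with its standard error for each member at 11 weeks (red) and 19-21 weeks (blue), filled where the adjusted p was under 0.05, n = 5 mice per group. At 11 weeks 13 symbols are filled and at 19-21 weeks 5, and among the 9 genes of the mitochondrial spiral the filled symbols are *Hadh* at 11 weeks (0.40) and *Echs1* at 19-21 weeks (-0.26).

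Entry into mitochondria runs over *Cpt1a*, which commits long-chain acyl groups to oxidation, *Slc25a20*, the carnitine-acylcarnitine carrier of the inner membrane (chr9:108662088-108684641, GRCm38), and *Cpt2* behind it. *Slc25a20* was at 70.9, 87.0, 86.9, 71.7 and 78.6 CPM in the 5 control mice of 11 weeks and at 136, 155, 129, 114 and 135 CPM in the 5 Titan mice. The groups did not overlap, and the difference was 0.76 ± 0.09 on the log2 scale (SE, adjusted p = 1.17e-05). *Crat*, the carnitine acetyltransferase that buffers acetyl groups, was at 43.2, 33.3, 52.9, 52.1 and 31.2 CPM in controls and 111, 90.6, 70.7, 69.3 and 75.1 CPM in Titan mice, again without overlap (log2 0.97 ± 0.16, adjusted p = 0.000313). The 2 palmitoyltransferases did not pass the test: the log2 difference was 0.31 ± 0.14 for *Cpt1a* (adjusted p = 0.147) and 0.05 ± 0.10 for *Cpt2* (adjusted p = 0.792).

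Of the 9 genes of the mitochondrial spiral, *Acadvl*, *Acadl*, *Acadm* and *Acads*, the dehydrogenases for very long to short chains, *Hadha* and *Hadhb*, the trifunctional protein, *Echs1*, the short-chain hydratase, *Hadh*, the short-chain hydroxyacyl dehydrogenase, and *Acaa2*, 1 was called. *Hadh* lay between 202 and 244 CPM in controls (median 217) and between 233 and 342 CPM in Titan mice (median 286), with overlap, and was higher by log2 0.40 ± 0.10 (adjusted p = 0.00873). The other 8 ranged in log2 difference from -0.06 to 0.23. For *Acaa2*, the most abundant, the difference was -0.00 with a 95% interval of -0.20 to 0.19, and for *Acadvl* it was 0.01 with an interval of -0.19 to 0.22. None of the helper genes *Eci1* (isomerase) and *Decr1* (dienoyl-CoA reductase), the electron transfer genes *Etfa*, *Etfb* and *Etfdh*, or the ketone body genes *Bdh1* (beta-hydroxybutyrate dehydrogenase) and *Acat1* (acetoacetyl-CoA thiolase) passed the test, at log2 differences from -0.20 to 0.26. For *Bdh1* the approximate 95% interval was 0.01 to 0.51, although its unadjusted p was not under 0.05 (adjusted p = 0.191).

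Of the 6 acyl-CoA thioesterase genes 3 were higher, among them *Acot3*, which had the largest log2 difference of the 41 members at 11 weeks. *Acot3*, a peroxisomal thioesterase, was barely detected in 11-week-old controls, at 0.169, 0.9996, 2.97, 1.10 and 0.414 CPM (2 to 60 reads), and was at 37.1, 40.4, 11.4, 9.43 and 19.0 CPM in Titan mice of that age (95 to 539 reads). Every Titan mouse lay above every control (log2 4.25 ± 0.61, adjusted p = 7.11e-05), and the fold is imprecise because the controls had few reads. *Acot4*, a peroxisomal thioesterase of succinyl-CoA and other dicarboxylic acyl-CoAs, was at 23.8, 31.7, 50.6, 40.4 and 31.2 CPM in controls and at 145, 142, 76.3, 62.7 and 101 CPM in Titan mice (log2 1.56 ± 0.22, adjusted p = 7.16e-05). *Acot2*, the mitochondrial form, was at 1.77, 6.25, 4.80, 5.73 and 4.35 CPM in controls and at 15.3, 17.7, 8.17, 6.55 and 10.04 CPM in Titan mice (log2 1.33 ± 0.27, adjusted p = 0.00187). Neither *Acot4* nor *Acot2* overlapped between the groups. The cytosolic *Acot1* overlapped, with 4.22 to 16.8 CPM in controls and 12.1 to 29.6 CPM in Titan mice. It missed the edgeR threshold at log2 0.78 ± 0.28 (adjusted p = 0.0726) and was called by DESeq2. *Acot8* in peroxisomes (log2 0.32 ± 0.13, adjusted p = 0.0988) and *Acot12* in the cytosol (log2 0.22 ± 0.10, adjusted p = 0.169) were not called.

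Within the peroxisomal spiral the steps moved unequally. *Acaa1a*, a thiolase of the last step (chr9:119339676-119350299), was at 79.2, 113, 116, 101 and 107 CPM in 11-week-old controls and at 303, 235, 240.5, 167 and 201 CPM in Titan mice (log2 1.15 ± 0.16, adjusted p = 6.95e-05). The related thiolase gene *Acaa1b* was at 296, 727, 497, 575 and 591 CPM in controls and 1129, 923, 884, 487 and 735 CPM in Titan mice, with overlap (log2 0.63 ± 0.25, adjusted p = 0.0985). *Acox2*, the oxidase for branched chains and bile acid precursors, was the one member lower at this age, at 187 to 201 CPM in Titan mice (median 189) against 224 to 276 CPM in controls (median 249.97), without overlap (log2 -0.38 ± 0.09, adjusted p = 0.00566). The bifunctional enzymes of the middle steps, *Ehhadh* with log2 -0.17 ± 0.16 and *Hsd17b4* with log2 0.23 ± 0.10, did not pass the test.

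Of the other genes that serve the peroxisome, *Decr2*, *Pex11a* and *Crot* were higher, and *Abcd3* and *Eci2* were not called. *Decr2*, the peroxisomal dienoyl-CoA reductase for unsaturated chains, was at 105, 164, 126, 155 and 114 CPM in controls and 254, 233, 192, 178 and 223 CPM in Titan mice (log2 0.70 ± 0.14, adjusted p = 0.00119). *Pex11a*, which elongates and divides peroxisomes, was at 42.1, 64.1, 53.8, 43.4 and 54.6 CPM in controls and 131, 128, 111, 65.7 and 93.2 CPM in Titan mice (log2 1.04 ± 0.21, adjusted p = 0.00213). The groups were apart for both, although the lowest Titan mouse of *Pex11a* lay close to the highest control. *Crot*, the octanoyltransferase that hands shortened chains to carnitine for export to mitochondria, was at 731, 1096, 648, 869.8 and 942 CPM in controls and 1149, 1281, 1069.9, 1166 and 1242 CPM in Titan mice, with overlap (log2 0.46 ± 0.14, adjusted p = 0.0293). *Abcd3*, the importer of acyl-CoA in the peroxisomal membrane, differed by log2 0.15 ± 0.12 and the isomerase gene *Eci2* by 0.25 ± 0.12.

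*Pdk4*, which blocks pyruvate oxidation and so favours fatty acids as fuel, lay between 17.2 and 27.9 CPM in 11-week-old controls (median 19.3) and between 39.1 and 74.6 CPM in Titan mice (median 61.3), without overlap (log2 1.44 ± 0.46, adjusted p = 0.0380). *Vnn1*, a pantetheinase of coenzyme A turnover, lay between 2.90 and 14.2 CPM in controls (median 7.44) and between 31.3 and 61.6 CPM in Titan mice (median 50.9), without overlap (log2 2.51 ± 0.51, adjusted p = 0.00175). The genes of uptake and activation were not called: *Fabp1* differed by log2 0.26 ± 0.18, *Acsl1* by -0.21 ± 0.10 and *Slc27a2* by -0.16 ± 0.11. Of the 20 fits that each leave out 1 mouse, *Pdk4* lost its call in 8 (control mice 1, 2, 4 and 5 and Titan mice 1, 2, 3 and 5 of 11 weeks, largest adjusted p = 0.0775). *Crot* lost it in 5 (control mice 1, 3 and 4 and Titan mice 2 and 5, largest adjusted p = 0.0818).

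**Figure D3:**
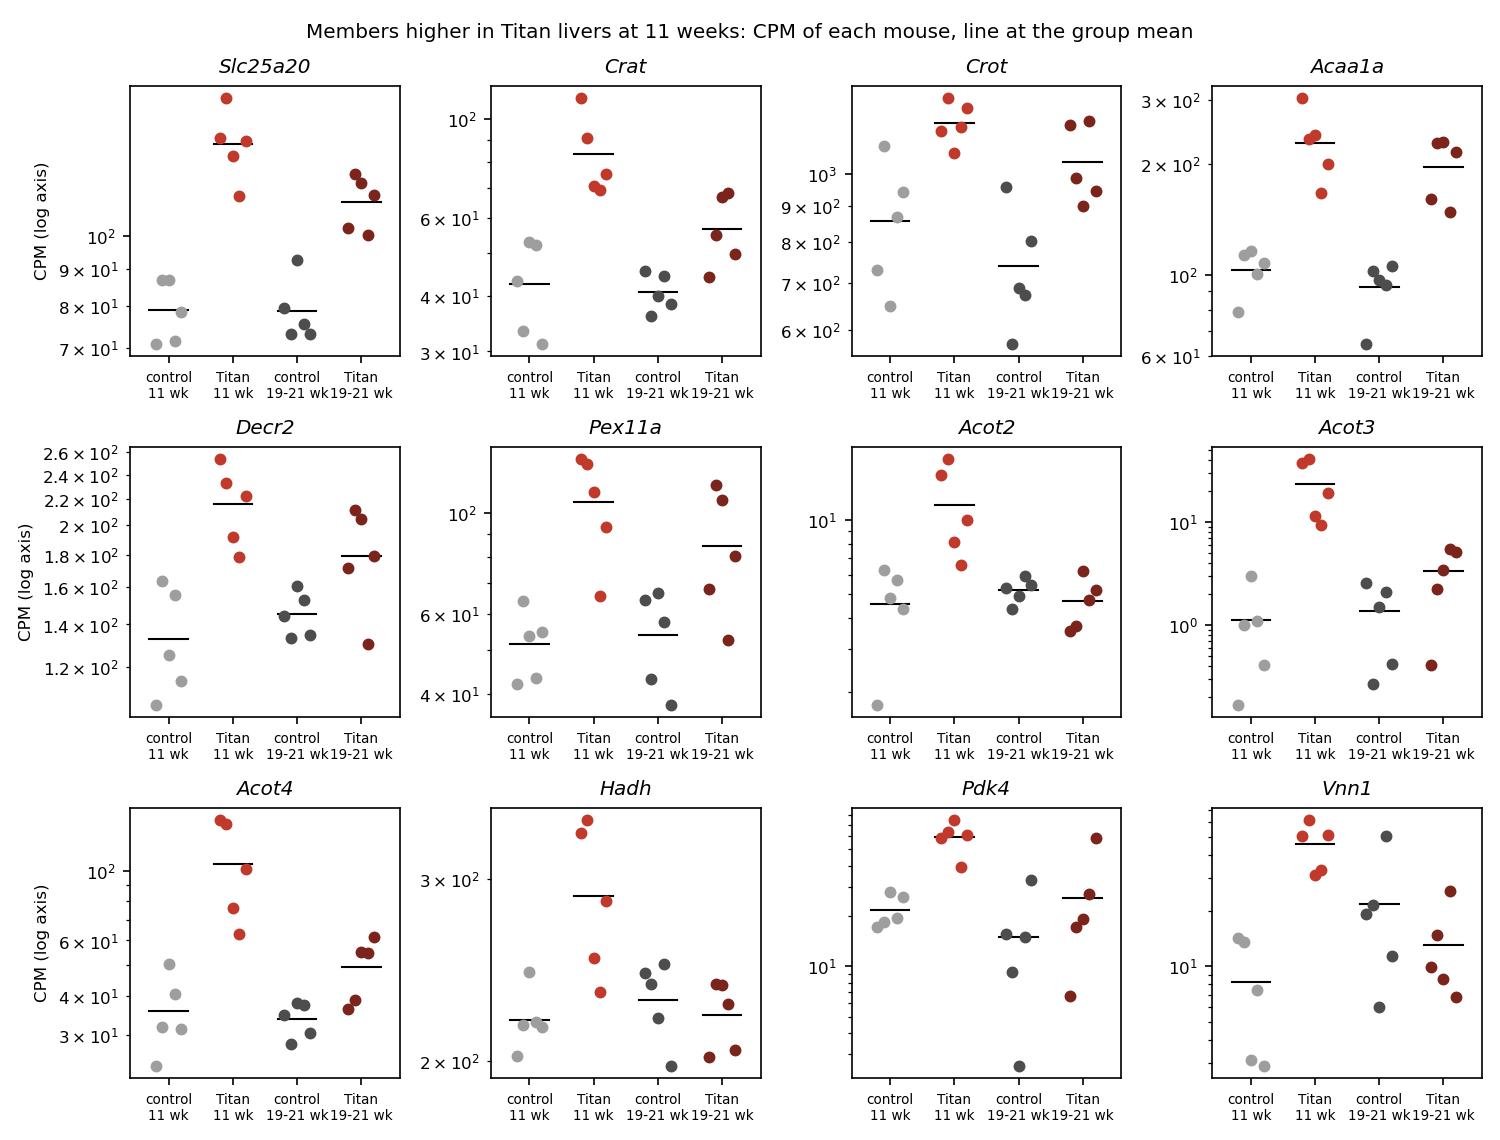
CPM (log axis) of the 12 members called higher in Titan livers at 11 weeks, 1 point per mouse and a line at the mean of each group of 5. Except for *Hadh* and *Crot*, all 5 Titan mice of 11 weeks lie above all 5 controls of that age, and *Acot2*, *Acot3* and *Acot4* return toward the control level at 19-21 weeks.

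At 19-21 weeks, fewer members were called between the lines, and in both directions. Median depth was lower at this age in both lines, and its part in the lower count was not tested. *Slc25a20*, *Acaa1a* and *Crot* were higher in Titan livers, and *Ehhadh* and *Echs1* were lower. These 5 of 41 members (12.2%) stand beside 9.12% of all tested genes called, 4.24% higher and 4.88% lower. The groups did not overlap in 5 members, 2 higher and 3 lower in Titan mice, against 7.63% of all tested genes in either direction. The median log2 difference was -0.03 over the members and 0.01 over all tested genes, with 19 of 41 members positive. Of the 21 mitochondrial members, 5 had a positive sign and the median was -0.10, and of the 12 peroxisomal members 9 were positive with a median of 0.24.

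*Slc25a20* was at 79.5, 73.2, 92.7, 75.6 and 73.2 CPM in older controls and at 103, 122, 118, 100.2 and 114 CPM in older Titan mice, without overlap (log2 0.50 ± 0.09, adjusted p = 0.00163). *Acaa1a* was at 64.7, 102, 96.7, 93.9 and 106 CPM in controls and at 161, 229, 229.7, 149 and 216 CPM in Titan mice, also without overlap (log2 1.09 ± 0.16, adjusted p = 0.000269). *Crot* was at 959, 573, 689, 672 and 802 CPM in controls and at 1174, 987, 899, 1189.5 and 945 CPM in Titan mice, with overlap (log2 0.49 ± 0.14, adjusted p = 0.0315). *Slc25a20* and *Acaa1a* were thus apart between the lines at both ages. *Crot* was called at both, but at 19-21 weeks not without control mouse 2, 3 or 4 or Titan mouse 1 or 4 (largest adjusted p = 0.0836).

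*Ehhadh*, the peroxisomal bifunctional enzyme, was at 438, 409, 538, 403 and 436 CPM in older controls and at 191, 327, 330.3, 247 and 289 CPM in older Titan mice (log2 -0.68 ± 0.16, adjusted p = 0.0113). Every Titan mouse lay below every control. *Echs1* was at 208, 206, 194, 185 and 192 CPM in controls and at 147, 184, 176, 148 and 168 CPM in Titan mice, likewise apart, but the difference was small (log2 -0.26 ± 0.08, adjusted p = 0.0440) and its call was lost in 19 of 29 alternative fits (largest adjusted p = 0.113). *Acadl* was the third member that lay lower without overlap, at 147 to 167 CPM against 168 to 197 CPM, and was not called (log2 -0.21 ± 0.09, adjusted p = 0.164).

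Members called at 11 weeks that missed the threshold at 19-21 weeks varied in sign. *Pex11a* was at 64.5, 43.2, 66.7, 57.7 and 37.8 CPM in older controls and 68.1, 115, 107, 52.5 and 80.6 CPM in older Titan mice (log2 0.65 ± 0.22, adjusted p = 0.0651). *Crat* was at 45.6, 36.0, 40.0, 44.3 and 38.3 CPM in controls and 44.0, 54.9, 66.7, 68.1 and 49.7 CPM in Titan mice (log2 0.48 ± 0.16, adjusted p = 0.0720). *Decr2* differed by log2 0.30 ± 0.14 (adjusted p = 0.172), *Acot4* by 0.55 ± 0.23 (adjusted p = 0.134) and *Acot3* by 1.34 ± 0.67 (adjusted p = 0.224). For *Hadh* the difference was -0.05 ± 0.10 and for *Acot2* -0.14 ± 0.29. *Pdk4* spread over 2.54 to 32.97 CPM in older controls and 6.66 to 58.6 CPM in older Titan mice (log2 0.81 ± 0.48, adjusted p = 0.314), with a 95% interval of -0.13 to 1.75 that includes its value at 11 weeks. *Vnn1* was at 6.04 to 50.6 CPM in older controls and 6.80 to 25.5 CPM in older Titan mice (log2 -0.68 ± 0.50, adjusted p = 0.431). *Acox2*, lower at 11 weeks, lay between 175 and 231 CPM in older Titan mice and between 216 and 283 CPM in older controls (log2 -0.26 ± 0.09, adjusted p = 0.0781). Of the members in this paragraph, DESeq2 called *Acox2*, *Crat* and *Pex11a* at this age and not the others.

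Between 11 and 19-21 weeks, 3 members fell in Titan livers and 0 rose, and all 3 were thioesterases. Over all tested genes 1.25% were called in this comparison, 0.486% higher and 0.762% lower. *Acot3* was at 0.408, 2.25, 3.40, 5.48 and 5.10 CPM in older Titan mice, below each of the 5 young ones (log2 -2.76 ± 0.56, adjusted p = 0.0198). *Acot4* was at 36.2, 38.7, 55.1, 54.6 and 61.5 CPM, again below all young Titan mice (log2 -1.10 ± 0.22, adjusted p = 0.0198). *Acot2* was at 3.53, 3.71, 6.20, 4.72 and 5.18 CPM, likewise below all of them (log2 -1.30 ± 0.28, adjusted p = 0.0284). In older controls the 3 genes were at 0.271 to 2.57, 27.9 to 38.0 and 4.33 to 5.93 CPM, ranges that the older Titan mice overlap. Whether the 3 genes passed the threshold depended on single mice. Without Titan mouse 1 or 2 of 11 weeks, or Titan mouse 1 of 19-21 weeks, 0 members were called, and without Titan mouse 4 of 11 weeks 9 were. The log2 difference without 1 mouse ranged from -3.01 to -2.49 for *Acot3*, from -1.24 to -0.96 for *Acot4* and from -1.45 to -1.10 for *Acot2*. *Acot2* also lost its call without Titan mouse 5 of 11 weeks or Titan mouse 2 of 19-21 weeks (largest adjusted p = 0.112), and *Acot2* and *Acot4* lost theirs in a fit of only the 2 groups compared (adjusted p = 0.0525 and 0.0559). The pericentral markers moved in the same comparison, with 2 of 8 called higher in older Titan mice and a sum of 4188 to 6035 CPM against 2445 to 3996 CPM in young ones, and their part in the result was not tested. This comparison shares the 11-week-old Titan mice with that of the lines at 11 weeks, so the fall of the 3 genes and their higher level at 11 weeks are not independent results.

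The other members mostly leaned the same way in Titan livers without passing the edgeR test. Of 41, 37 had a negative sign, with a median of -0.20 against 0.02 over all tested genes, and 18 had an unadjusted p under 0.05, as did 15.6% of all tested genes. In 5 members every older Titan mouse lay below every younger one, *Crat* and *Vnn1* besides the 3 thioesterases, which was the case for 1.56% of all tested genes. *Crat* differed by -0.56 ± 0.16 (adjusted p = 0.0914), *Vnn1* by -1.79 ± 0.49 (adjusted p = 0.0756), *Hadh* by -0.38 ± 0.10 (adjusted p = 0.0591), *Acadl* by -0.33 ± 0.09 (adjusted p = 0.0845) and *Decr1* by -0.46 ± 0.13 (adjusted p = 0.0845). DESeq2 called 9 members in this comparison: *Crat*, *Vnn1*, *Hadh*, *Acadl*, *Decr1* and *Ehhadh* besides the 3 thioesterases. *Acaa1a*, in contrast, differed by only -0.22 ± 0.16 between the ages.

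In control livers, 0 of 41 members were called between the ages by edgeR and 0 by DESeq2, and 2 had an unadjusted p under 0.05 in edgeR, *Acsl1* (log2 -0.33 ± 0.10) and *Vnn1* (log2 1.40 ± 0.51). Over all tested genes 0.0871% were called and 6.15% had such a p. The median over the members was -0.00, with 20 of 41 positive. The difference of the 2 age effects, Titan minus control, was tested directly and called for 0 members by edgeR, beside 0.00726% of all tested genes. There were 10 members with an unadjusted p under 0.05 in edgeR (8.92% of all tested genes), and DESeq2 called 2, *Acot2* and *Vnn1*. *Vnn1* had the largest estimate in size, -3.19 ± 0.71 (adjusted p = 0.144), followed by *Acot3* at -2.91 ± 0.91 (adjusted p = 0.290), *Acot2* at -1.47 ± 0.39 (adjusted p = 0.216) and *Acot4* at -1.01 ± 0.32 (adjusted p = 0.290). An age effect that differs between the lines was therefore not shown for any member by the edgeR test.

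**Figure D4:**
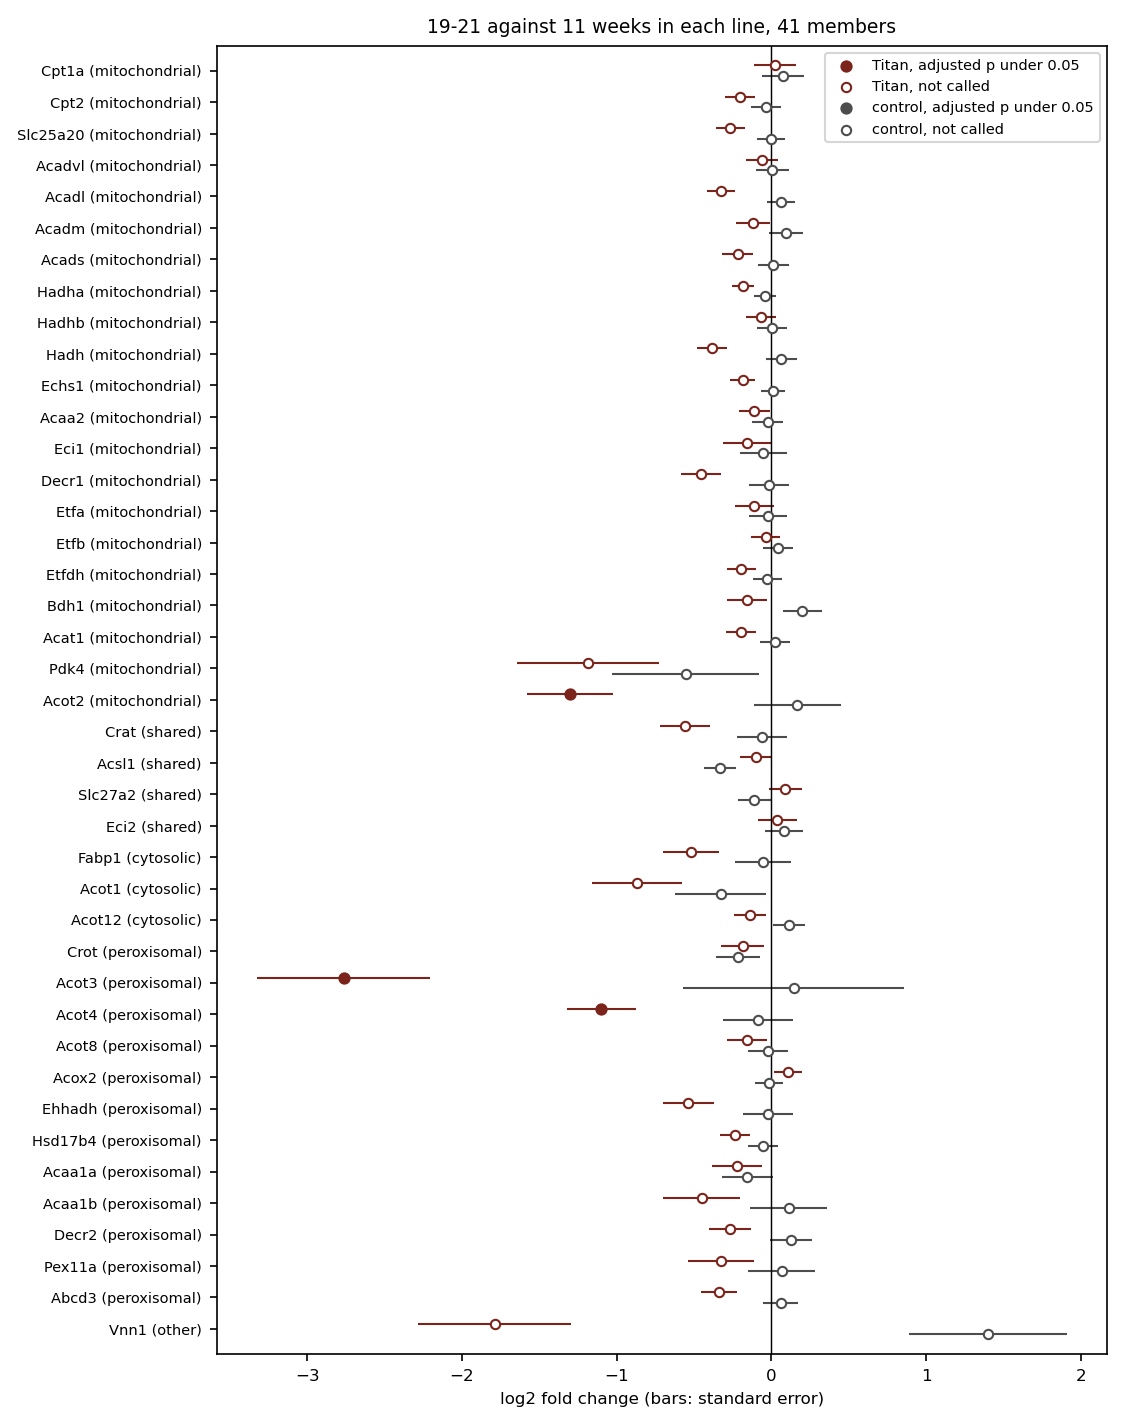
Log2 fold change of 19-21 against 11 weeks with its standard error for each member in Titan (dark red) and control (grey) livers, filled where the adjusted p was under 0.05, n = 5 mice per group. The 3 filled symbols are *Acot2*, *Acot3* and *Acot4* in Titan mice. The control values range from -0.55 for *Pdk4* to 1.40 for *Vnn1*, both with wide errors, and *Acsl1* lies at -0.33 with a narrow error.

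Mice of 1 group differed in a way shared by many members. Among the 11-week-old Titan mice, mouse 1 was highest in 21 of 41 members and mouse 2 in 17, while mouse 4 was lowest in 30. Mice 1 and 2 were the 2 highest in 27 of 41 members and in 8 of the 12 that were called higher at this age. Among 11-week-old controls mouse 1 was lowest in 25 members, and among older mice control 3 was highest in 23 and Titan 4 lowest in 21. The members are thus not independent observations within a mouse. For the 12 members called higher at 11 weeks, leaving out any 1 mouse kept the positive sign.

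**Figure D5:**
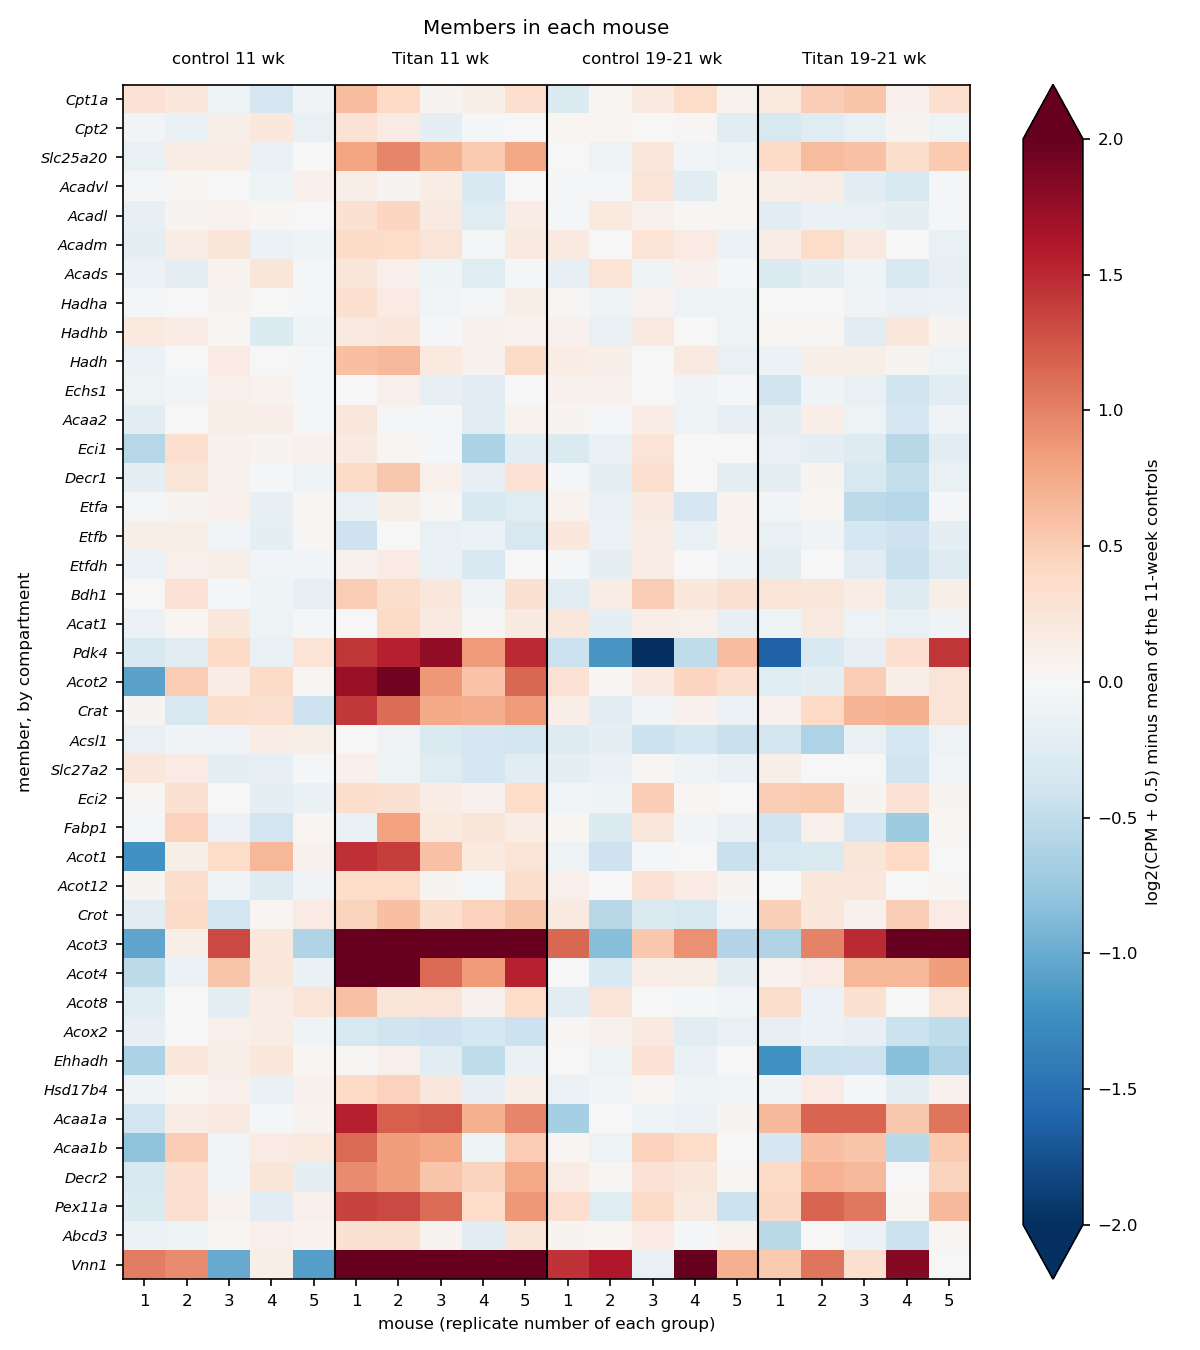
Difference of log2(CPM + 0.5) from the mean of the 11-week-old controls for the 41 members (rows, ordered by compartment) in each of the 20 mice (columns), with colour limited to 2 on either side. Red fills the rows of *Acot3*, *Acot4*, *Acaa1a*, *Pex11a*, *Slc25a20* and *Vnn1* in young Titan mice, and mouse 4 of that group is the lowest of the 5 in 30 of 41 rows.

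Several members lie near each other in the genome. *Acot2* (chr12:83987861-83993873), *Acot1* (chr12:84009490-84018371), *Acot4* (chr12:84038379-84048601) and *Acot3* (chr12:84052144-84060402) follow each other on the plus strand of chromosome 12 in GRCm38. At 11 weeks edgeR called 3 of them, and *Acot1*, which lies among them, narrowly missed its threshold and was called by DESeq2. *Acaa1b* and *Acaa1a* lie 182582 bases apart on chromosome 9, and *Hadha* and *Hadhb* start 85 bases from each other on opposite strands of chromosome 5. Some of these genes share sequence, and reads that map to several places were not counted. Of the stretches of 50 bases in its transcripts, *Acot2* shared 27.7% with another gene, *Acot1* 19.2%, *Acot3* 19.1%, *Acaa1b* 30.5% and *Acaa1a* 12.9%. For *Hadhb* the share was 19.7%, mostly with the pseudogene *Gm13910*, and its level of 4.21 ± 0.559 CPM per kb stood beside 46.6 ± 1.08 for *Hadha*, so it is uncertain. The same holds for *Etfb*, of which 44.8% was shared, mostly with *Gm45233*, which overlaps it on the same strand, and *Acot3* and *Acot4* both overlap *Gm49366* on their own strand.

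Because of this sharing, the counts of close pairs were also summed. A sum does not recover the reads that were left uncounted. *Acaa1b* also gave most of the sum of its pair, with a mean of 580 CPM against 92.7 CPM for *Acaa1a* in older controls. *Acaa1a* and *Acaa1b* together were higher in Titan livers at 11 weeks (log2 0.73 ± 0.23, adjusted p = 0.0339) but not called at 19-21 weeks (log2 0.26 ± 0.23, adjusted p = 0.516). *Acaa1b* alone differed by 0.07 ± 0.25 at that age (adjusted p = 0.898), so the call of *Acaa1a* does not hold for the pair. *Acot1* and *Acot2* together were higher at 11 weeks (log2 0.96 ± 0.27, adjusted p = 0.0200) and missed the threshold between the ages in Titan livers (log2 -1.02 ± 0.28, adjusted p = 0.0723). *Acot3* and *Acot4* together were called in both, with log2 1.81 ± 0.25 (adjusted p = 4.93e-05) and -1.29 ± 0.25 (adjusted p = 0.0134).

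PPAR alpha binds DNA as a partner of RXR at a repeat of 2 half-sites, AGGTCANAGGTCA, and this pattern was searched on both strands in the 250 bases before the start of each gene (RefSeq promoters, GRCm38.p6). A match of at least 10 of the 12 fixed letters was present for 5 of the 35 members with an entry (14.3%) and for 1005 of 27025 genes (3.72%). Among the members higher at 11 weeks, 1 of 10 with an entry had one. *Crat*, *Acaa2*, *Decr1*, *Acat1*, *Hsd17b4* and *Vnn1* had no entry. The matches are shown to let the letters be compared, with the matched 13 bases in capitals, 5′ to 3′ on the strand of the gene. Those of *Acot4*, *Acot12*, *Fabp1* and *Etfa* are on the opposite strand and read as the reverse complement. The window of *Acot4* (chr12:84038352-84038378) ends at the gene's start, and the others are those of *Acot12* (chr13:91741397-91741437), *Fabp1* (chr6:71199798-71199838), *Echs1* (chr7:140116478-140116518, minus strand) and *Etfa* (chr9:55512294-55512334, minus strand).
Acot4: tcagccccgaagcaTGACCTTTGGCCG
Acot12: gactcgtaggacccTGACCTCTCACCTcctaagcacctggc
Fabp1: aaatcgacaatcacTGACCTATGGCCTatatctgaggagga
Echs1: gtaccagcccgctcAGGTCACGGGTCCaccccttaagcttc
Etfa: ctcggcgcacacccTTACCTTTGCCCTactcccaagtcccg
*Acot12* and *Fabp1* matched 11 letters and the other 3 matched 10. Of these 5 genes, *Acot4* was higher in Titan livers at 11 weeks, *Echs1* was lower at 19-21 weeks, and the other 3 were not called between the lines. A match says nothing on binding in these livers, and sites outside the window were not searched.

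Genes of the same routes outside the 41 gave these counts. Of 12 tested genes of ketogenesis and omega-oxidation, in which Cyp4a enzymes oxidize the far end of the chain, 6 were higher and 1 lower at 11 weeks, 2 higher and 0 lower at 19-21 weeks, and 4 lower between the ages in Titan livers. *Cyp4a14* was at 0.928 to 17.5 CPM in 11-week-old controls and 13.6 to 436 CPM in Titan mice (log2 4.76 ± 1.01, adjusted p = 0.00251), with overlap, and *Cyp4a10* at 5.23 to 34.7 and 31.8 to 292 CPM (log2 2.99 ± 0.63, adjusted p = 0.00253). Both fell with age in Titan livers, *Cyp4a14* by 4.27 and *Cyp4a10* by 3.68 on the log2 scale (adjusted p = 0.0376 and 0.00988), as the thioesterase genes did. Of the 4 genes lower between the ages, *Slc16a1* had the smallest p and a smaller difference (log2 -0.83 ± 0.14, adjusted p = 0.0066). The monocarboxylate transporter gene *Slc16a6*, whose product exports ketone bodies from liver cells, was higher at both ages, by log2 0.98 ± 0.20 and 0.84 ± 0.21 (adjusted p = 0.00201 and 0.0150). *Fgf21*, a fasting hormone of the liver, was at 4.16 to 6.51 CPM in 11-week-old Titan mice against 0.416 to 2.45 CPM in controls, and at 3.53 to 16.5 against 0.378 to 1.71 CPM at 19-21 weeks, without overlap at either age (adjusted p = 0.0144 and 0.00113).

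Among 18 other mitochondrial oxidation genes, which include those for branched-chain amino acids, 3 were higher and 7 lower at 11 weeks and 0 and 6 at 19-21 weeks, led by *Ivd*, isovaleryl-CoA dehydrogenase (log2 -0.99 ± 0.11 and -0.70 ± 0.11), and *Acadsb*, the short and branched-chain dehydrogenase (log2 -0.54 ± 0.07 and -0.44 ± 0.07). Of 19 other peroxisomal oxidation genes, 3 were higher and 4 lower at 11 weeks, and 0 and 2 at 19-21 weeks. *Abcd2*, a peroxisomal importer of very long-chain acyl-CoA, was the most raised of these at log2 2.68 ± 0.54 (adjusted p = 0.00180). Of 13 further uptake and activation genes, 6 were higher and 1 lower at 11 weeks, among them the carnitine transporter gene *Slc22a5* (log2 0.62 ± 0.15, adjusted p = 0.00859), and 0 and 1 at 19-21 weeks. Of 17 other PPAR alpha target genes, 9 were higher and 1 lower at 11 weeks, and 5 and 1 at 19-21 weeks, led by *Mgll*, monoacylglycerol lipase (log2 1.24 ± 0.17 and 0.63 ± 0.17), and *Gpd1*, glycerol-3-phosphate dehydrogenase (log2 1.10 ± 0.17 and 0.61 ± 0.17). *Ppara* itself was not called at either age (log2 0.25 ± 0.13 and 0.14 ± 0.13, adjusted p = 0.216 and 0.527). Of the 21 regulators, 2 were higher at 11 weeks and 0 were called at 19-21 weeks, and 0 of 16 core clock genes were called in either comparison of lines.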

How the data were processed

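Livers of 20 male mice were analysed, 5 in each of 4 groups given by the sample titles. The authors depleted rRNA, made directional libraries, mapped the reads with STAR 2.5.3a to GRCm38 and deposited raw counts per gene and strand, without normalization. Of the 3 deposited columns only the sense-strand one entered the main fit; it carried 96.8% to 97.5% of the reads given to either strand. Reads at several positions or on more than 1 gene are not counted, and the read length is not given in the sources used here.

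Symbols and positions came from GENCODE M21. Following the study's methods, genes on the Y chromosome and histone genes were dropped. Counts were fitted in edgeR 4.0.16 (R 4.3.3; filterByExpr, TMM, quasi-likelihood F tests, 1 fit of 4 groups, no covariates), and p values were adjusted by Benjamini-Hochberg over 13783 genes. Each SE was obtained by dividing the log2 fold change by the root of its F statistic, and the 95% interval is 1.96 SE on either side. This interval is approximate and somewhat narrower than the F test implies, so calls rest on the test. The p values measure the spread between mice, and nothing states whether these share litters. No pair of libraries agreed within sampling noise.

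The members and lists were chosen with earlier results of these data known. Per-mouse values are given for members called between the lines at both ages, for the 6 with the smallest p in each comparison of lines and for those called between ages, and at most 3 called genes per direction are named of each other list, besides *Fgf21* and *Ppara* as regulators. *Acaa1b* was given per mouse as the paralog of *Acaa1a*, chosen after its values were seen. Alternatives were DESeq2 1.42.0, RLE factors, both-strand counts, other filters, 2-group fits, the replicate number as a block, the share of reads outside genes, and each mouse left out. The fits were tested on simulated data. Of genes changed by log2 0.5, 19.7% were called at 11 weeks and 36.4% at 19-21 weeks. For a change of 1.0 the shares were 59.7% and 68.7%, and for 1.5 they were 89.6% and 86.6%. Of the calls, 3 of 116 and 10 of 138 were false. A member that was not called may thus still differ, above all by a small amount. Counts of the peroxisome biogenesis list are not reported here.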

Additional observations from a re-analysis of the deposited data

Results flagged for a closer look

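In 7 of 164 sets of 5 mice (41 members in 4 groups) 1 mouse lay far from the other 4, by Dixon's ratio against its 95% limit. Chance flags about 1 in 20 sets, or 8.2 here. *Ehhadh* appeared in 2 of them: control mouse 1 of 11 weeks was at 284 CPM against 455 to 517 CPM in the others, and control mouse 3 of 19-21 weeks at 538 CPM against 403 to 438 CPM. In the same older control mouse 3, *Eci2* was at 162 CPM against 108 to 119 CPM. *Acaa1a* was at 64.7 CPM in control mouse 1 of 19-21 weeks, against 93.9 to 106 CPM. *Cpt2* was at 121 CPM in control mouse 5 of 19-21 weeks, against 141 to 146 CPM. Among older Titan mice, *Eci1* was at 46.2 CPM in mouse 4, against 57.2 to 61.7 CPM, and *Acat1* was at 487 CPM in mouse 2, against 389 to 409 CPM. Leaving out these mice did not change the calls of *Acaa1a* and *Ehhadh* at 19-21 weeks.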

How the results depend on the processing

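Of 21 calls of single members, 13 held in every alternative that tested them, 8 missed the threshold in at least 1, and 0 changed sign. *Acot3* could not be tested with at least 10 counts in every mouse, and its alternatives include the sum with *Acot4*. Among the 8, *Acaa1a* at 19-21 weeks missed it only in the sum with *Acaa1b*. At 11 weeks the count of members higher was 10 to 16 over the fits without 1 mouse, and the 1 lower member was no longer counted (0) with a log2 limit of 0.5. At 19-21 weeks the 3 higher members became 5 with DESeq2 and 1 with the log2 limit. The 2 lower members became 1 with RLE factors, at least 10 counts in every mouse, both-strand counts, no filter, a fit of only the 2 groups, the replicate block, the share of reads outside genes and the log2 limit, and ranged from 1 to 3 without 1 mouse. Between the ages in Titan livers the 3 members became 9 with DESeq2 and 1 with the replicate block (*Vnn1*, adjusted p = 0.0321, while *Acot2*, *Acot3* and *Acot4* lost their calls at 0.0638, 0.0637 and 0.0507), with a range of 0 to 9 without 1 mouse. The difference of the age effects gave 2 members with DESeq2 and 1 without a filter, and 0 to 1 without 1 mouse. In these cases the cause was not tested. The replicate numbers share only a number: correlations of same-numbered deviations lay between -0.162 and 0.118, and the replicate block changed no other count by over 1.5 times. Depth limits *Acot3*, with 2 to 60 reads in young controls, most of all.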
